A study of Homo sapiens with 2 samples.

Results

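The 9 genes described here encode steps of prostaglandin synthesis and sensing and the receptors of bradykinin: PLA2G4A, PTGS1, PTGS2, PTGES, PTGIS, PTGER2, PTGER4, BDKRB1 and BDKRB2. They were taken as the probe sets whose only gene symbol in the platform annotation was one of these names, which gave 17 probe sets for 9 of 19775 named genes. The genes were selected on the measured values themselves, the signal differences between these 2 arrays, so the values below are a description and carry no test. RNA came from 2 samples labelled U87, an established glioblastoma line grown in DMEM with 10% FBS. One received a control siRNA with no target (non-target siRNA below), the second an siRNA against the transcription factor FOXM1 (FOXM1 siRNA below), both by a lipid reagent, and the design text places RNA extraction at 48 hours. Each sample was hybridised to 1 array, so no spread between samples, no SD and no p-value exist for any value below. The non-target array went against its U87 label: it read 3467 for CDKN2A, 350 for CDKN2B and 619 for MTAP, 57.0, 5.75 and 10.2 times its detection floor, although this 9p21 region is known to be deleted in U87 cells. On the FOXM1 siRNA array they read 421, 31.8 and 76.3, which is 5.41, 0.41 and 0.98 times its floor. CDKN2A was thus above the floor on that array too. Both arrays are therefore named only as labelled, and no value below could be had without either of them.

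Prostaglandins are made from arachidonic acid. The cytosolic phospholipase PLA2G4A frees it from membranes, the cyclooxygenases PTGS1 and PTGS2 turn it into prostaglandin H, and terminal synthases finish the product: PTGES makes prostaglandin E and PTGIS makes prostacyclin. Prostaglandin E is sensed by receptors of which PTGER2 and PTGER4 raise cyclic AMP. Bradykinin and related peptides act through BDKRB2, which many cells carry at rest, and BDKRB1, which is known as inducible in inflamed tissue, and their signalling releases arachidonic acid. In gliomas, PTGS2 and prostaglandin E have been studied for their part in growth and in the immune response to the tumour.

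Upstream sequence is given for 4 genes. PTGS2 and BDKRB1 are shown because both are known as inducible genes and their windows held NF-kB pattern matches, PTGES because it is the terminal synthase of the same route, and BDKRB2 because it lies beside BDKRB1. Each line holds the 250 bases before the gene's start, 5′ to 3′ on the gene's strand, from RefSeq on GRCh38.p14. They are chr1:186680424-186680673 on the minus strand for PTGS2, chr9:129753043-129753292 on the minus strand for PTGES, chr14:96255960-96256209 on the plus strand for BDKRB1 and chr14:96204589-96204838 on the plus strand for BDKRB2. Capitals mark matches to the motifs named below that lie wholly before the start; a match on the opposite strand reads as its reverse complement.
PTGS2: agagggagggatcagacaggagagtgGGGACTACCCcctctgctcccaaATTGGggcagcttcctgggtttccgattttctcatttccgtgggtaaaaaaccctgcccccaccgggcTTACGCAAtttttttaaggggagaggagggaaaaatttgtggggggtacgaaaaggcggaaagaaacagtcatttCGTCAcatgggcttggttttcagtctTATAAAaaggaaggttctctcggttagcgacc
PTGES: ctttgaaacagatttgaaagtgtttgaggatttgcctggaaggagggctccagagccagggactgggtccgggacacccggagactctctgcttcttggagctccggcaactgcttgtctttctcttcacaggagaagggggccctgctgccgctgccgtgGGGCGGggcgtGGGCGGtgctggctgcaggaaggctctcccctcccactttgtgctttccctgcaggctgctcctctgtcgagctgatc
BDKRB1: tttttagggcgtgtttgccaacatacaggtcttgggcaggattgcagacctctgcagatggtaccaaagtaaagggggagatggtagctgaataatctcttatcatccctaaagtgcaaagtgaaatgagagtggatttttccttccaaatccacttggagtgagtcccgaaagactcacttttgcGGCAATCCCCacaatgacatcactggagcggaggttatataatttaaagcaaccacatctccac
BDKRB2: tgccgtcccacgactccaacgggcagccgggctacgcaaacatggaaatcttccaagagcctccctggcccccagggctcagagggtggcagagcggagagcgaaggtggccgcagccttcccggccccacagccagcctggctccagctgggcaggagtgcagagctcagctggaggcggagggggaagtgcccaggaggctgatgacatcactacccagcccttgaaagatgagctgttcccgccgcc

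The motifs were searched on both strands in windows of 300 bases, which add 50 bases after the start, in 8 of the 9 genes; PTGS1 has 2 such windows. The PTGS2 window held a match to the NF-kB pattern GGGNNTNNCC starting 224 bases before the start, which 21.9% of 34796 RefSeq promoter windows also hold. It also held a C/EBP pattern (TTNNGNAA) at 133 bases, the short CREB pattern TGACG at 58 bases and a TATA box (TATAAA) at 32 bases before the start. These patterns occur in 36.9%, 24.5% and 11.6% of all windows. A further TGACG match lies after the PTGS2 start. Of 2 CCAAT matches, found in 34.6% of windows, 1 spans the start and 1 lies 201 bases before it. The BDKRB1 window held 1 match, to the NF-kB pattern, 64 bases before the start, and the PTGER4 window held one 244 bases before its start. The PTGES window held 2 GC boxes (GGGCGG) and PTGER2 and PTGER4 held 2 and 4, and each PTGS1 window held 1, against 44.9% of all windows with at least 1. One PTGS1 window also held a TATA box. PTGER4 also held 2 CCAAT matches and PTGER2 held 1 TGACG match. The BDKRB2 and PLA2G4A windows held none of the 8 motifs. The AP-1 pattern (TGANTCA, in 7.73% of all windows) was in none of the members' windows, and the forkhead core (TAAACA, in 12.3%) was in a PTGS1 window, where it shares 3 bases with a C/EBP match. A match describes letters in a window and does not show that a factor binds there.

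Of the 9 genes, 8 were detected, meaning that the gene's brightest probe set, by its mean log2 signal, exceeded a floor on 1 array or both. The floor was the 90th percentile of 135 probe sets for olfactory receptor genes, 60.8 on the non-target array and 77.7 on the FOXM1 siRNA array. Lower signals were raised to it before taking log2. Of the 8 detected genes, 6 were higher on the FOXM1 siRNA array by 2-fold or more and 0 were lower by as much. Over all 13865 detected genes, 16.0% were higher and 15.4% lower by this measure. With the hybridisation controls set equal these shares were 11.3% and 23.1% and the median of all detected genes moved to -0.29, while the 6 members stayed past 2-fold. In bulk RNA of this kind, fewer cells that express a gene and less of its RNA per cell cannot be told apart. The median log2 difference of the 8 detected members was 2.83, against 0.01 over all detected genes. Because the genes were chosen for these differences, nothing is read from either comparison.

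**Figure D1:**
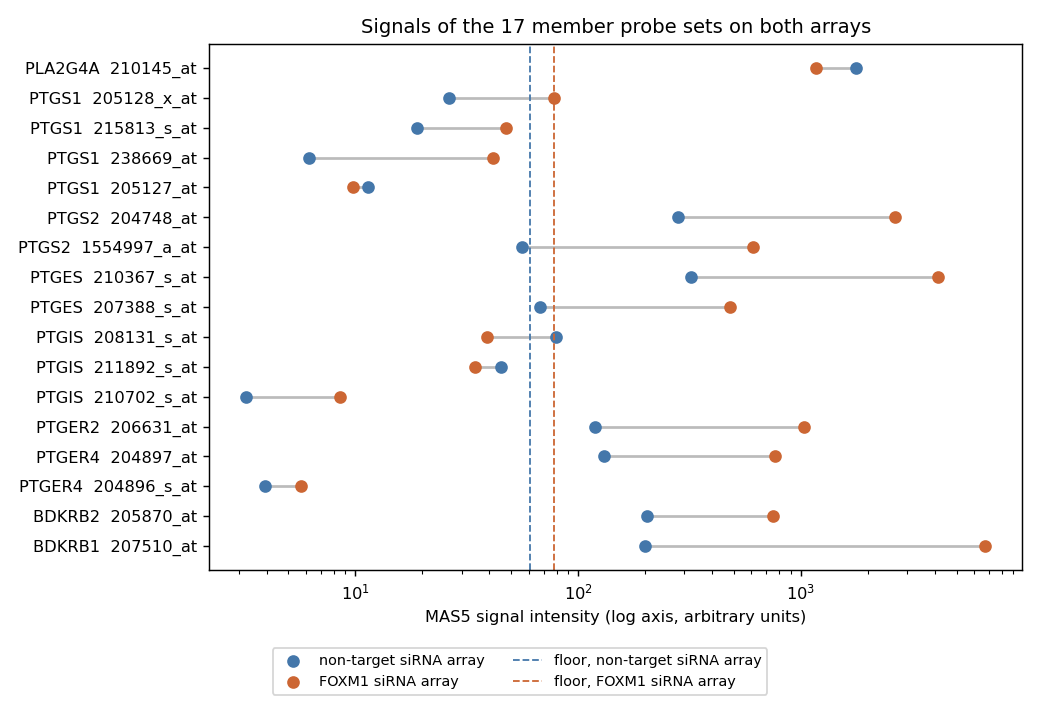
MAS5 signal intensity (log axis) of each of the 17 probe sets on the non-target siRNA array (blue) and the FOXM1 siRNA array (orange), with the detection floor of each array as a dashed line. Both PTGES probe sets and both PTGS2 probe sets lie far to the right on the FOXM1 siRNA array, PLA2G4A is bright on both, and all 4 PTGS1 probe sets lie below the floors.

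PLA2G4A, which frees the arachidonic acid, was bright on both arrays. Its probe set 210145_at read 1773 on the non-target array and 1165 on the FOXM1 siRNA array. It was thus the only member above the floor on both arrays that was lower with the FOXM1 siRNA, by a log2 difference of -0.61 (1.52-fold). At a 1.5-fold threshold it would count as lower, as 26.8% of all detected genes do, while 26.1% count as higher. Its difference is close to the SD of 0.65 that separates a pair of probe sets for the same gene in their log2 differences, taken over 5476 genes.

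Of the cyclooxygenases, PTGS2 was detected and PTGS1 was not. PTGS1, the form that most tissues carry at rest, was below the floor in all 4 of its probe sets on both arrays. Probe set 205128_x_at read 26.2 and 77.6, the second value just under the floor of 77.7, and 215813_s_at read 19.0 and 47.2. Probe sets 238669_at and 205127_at read 6.22 and 41.6, and 11.4 and 9.79, on the non-target and FOXM1 siRNA arrays. Of these 4, 3 read higher on the FOXM1 siRNA array, but below the floor signals have no order, and no fold is given for PTGS1. PTGS2, the inducible form, was measured by 2 probe sets. Probe set 204748_at read 281 on the non-target array and 2636 on the FOXM1 siRNA array, a 9.37-fold difference (log2 3.23). Probe set 1554997_a_at read 56.2, below the floor, and 611, so that it was at least 10.0-fold higher.

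Of the terminal synthases, PTGES was well above the floor on the FOXM1 siRNA array and PTGIS was near or below it. PTGES, the inducible synthase of prostaglandin E, read 321 on the non-target array and 4107 on the FOXM1 siRNA array in probe set 210367_s_at. This is a 12.8-fold difference (log2 3.68). Its dimmer probe set 207388_s_at read 67.1, just above the floor of 60.8, and 483, a 7.20-fold difference (log2 2.85). Both probe sets of PTGES may match more than 1 transcript, as the ending of their names marks, and their log2 differences had an SD of 0.59. PTGIS, the prostacyclin synthase, was close to the floor. Its probe set 208131_s_at read 79.1 on the non-target array, above the floor of 60.8, and 38.9 on the FOXM1 siRNA array, below the floor of 77.7. The bound this gives is only at least 1.02-fold lower. The other PTGIS probe sets, 211892_s_at and 210702_s_at, read 44.9 and 34.4, and 3.24 and 8.51, all below the floor.

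Both cyclic AMP coupled receptors of prostaglandin E were higher on the FOXM1 siRNA array. PTGER2 read 119 on the non-target array and 1036 on the FOXM1 siRNA array in its only probe set, 206631_at, an 8.73-fold difference (log2 3.13). PTGER4 read 131 and 764 in probe set 204897_at, a 5.82-fold difference (log2 2.54). The other PTGER4 probe set, 204896_s_at, read 3.94 and 5.67, far below the floor on both arrays, so the PTGER4 value rests on 1 probe set.

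Both bradykinin receptors were higher on the FOXM1 siRNA array, by differences of very unlike size. BDKRB1 read 199 on the non-target array and 6741 on the FOXM1 siRNA array in its only probe set, 207510_at. The difference was 33.9-fold (log2 5.08), and 3 of the 11395 genes that exceeded both floors had a larger one. BDKRB2 read 204 and 751 in its only probe set, 205870_at, a 3.67-fold difference (log2 1.88), with 730 genes above it. In RefSeq no other protein-coding gene lies between BDKRB2 and BDKRB1 on chromosome 14, and their log2 differences were 3.21 apart. PTGS2 and PLA2G4A are likewise next to each other among the protein-coding genes of chromosome 1. One was 9.37-fold higher and the other 1.52-fold lower on the FOXM1 siRNA array, so that their log2 differences were 3.83 apart. The SD of 0.65 between probe sets of the same gene holds no spread between genes or samples, so it does not gauge this gap.

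**Figure D2:**
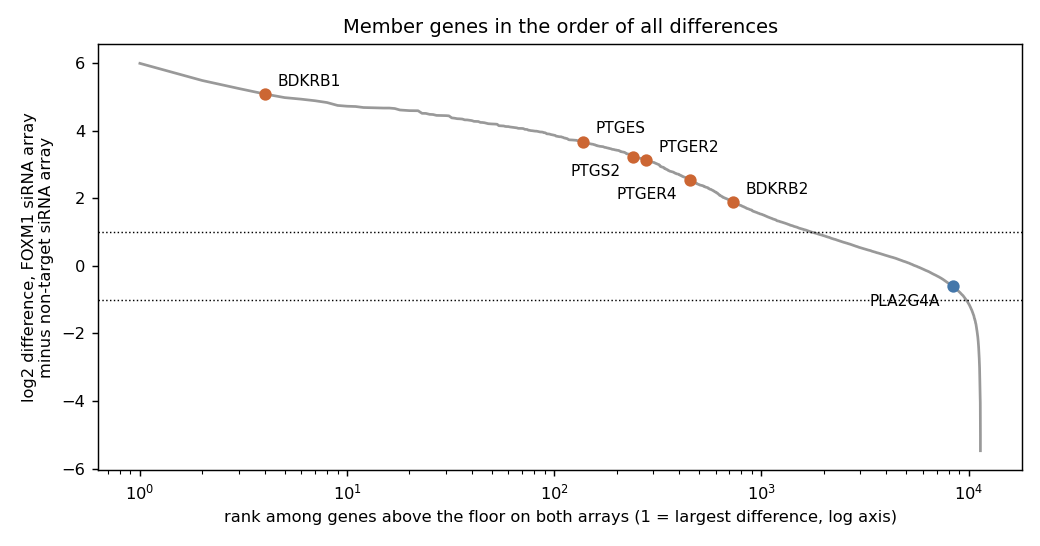
Log2 difference (FOXM1 siRNA array minus non-target siRNA array) of the 11395 genes that exceeded both floors, ordered by rank on a log axis; points are the 7 member genes among them and dotted lines mark 2-fold. BDKRB1 is at rank 4, PTGES at 138, PTGS2 at 240, PTGER2 at 276, PTGER4 at 452 and BDKRB2 at 731, and PLA2G4A lies at rank 8383.

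In the order of their differences the 6 higher genes ran from BDKRB1 through PTGES, PTGS2, PTGER2 and PTGER4 to BDKRB2. BDKRB1 stood 1.41 log2 units above PTGES, more than the SD of 0.65. The gaps from PTGES to PTGS2 (0.45), from PTGS2 to PTGER2 (0.10) and from PTGER2 to PTGER4 (0.58) were smaller than that SD. The gap from PTGER4 to BDKRB2 was 0.66, just over that SD. With the median over probe sets, however, PTGER4 (1.45) fell below BDKRB2 (1.88). That SD is between probe sets on the same 2 arrays and holds no spread between samples. The order of the members is therefore not settled by these arrays, also where a gap exceeds it. Over 2 arrays a gene's pattern is a single difference, so likeness is only nearness in that difference. Next to BDKRB1 were HLA-DRA (log2 5.48) and TMPRSS15 (5.25) above and PTPRN2 (4.98) and MIR100HG (4.93) below it. Next to PLA2G4A were DIS3 and LMBRD1 above and PELI1 and NOL12 below, each lower by 1.52-fold as PLA2G4A was.

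The wider lists that follow stand beside the same shares over all detected genes, 16.0% higher and 15.4% lower by 2-fold or more. All of these lists were drawn up with earlier results of these arrays known, so their counts are descriptions and support nothing. The other genes of prostanoid synthesis showed 2 of 6 detected genes at least 2-fold higher and 0 lower. AKR1C3, a reductase that makes prostaglandin F from other prostaglandins, read 84.3 on the non-target array and 1835 on the FOXM1 siRNA array. This 21.8-fold difference rests on a single probe set, whose non-target signal was only 1.39 times the floor. PRXL2B, which reduces prostaglandin H to prostaglandin F, read 178 and 491, a 2.76-fold difference. By contrast the other prostaglandin E synthases were nearly equal on both arrays. PTGES2 read 264 and 253, and PTGES3, also known as the co-chaperone p23, read 26450 and 26610. PTGDS, a prostaglandin D synthase, read 109 and 94.6, near the floor.

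Of 10 detected genes of arachidonate release and recycling outside the members, 3 were higher and 1 lower by 2-fold or more, and the median log2 difference was 0.31. MGLL, a lipase that splits the endocannabinoid 2-arachidonoylglycerol, read 243 and 2026, an 8.33-fold difference, and its other probe set was also past 2-fold. PLAAT3, a phospholipase of fat cells among other tissues, read 567 and 1878 (3.31-fold). ACSL4, which couples arachidonic acid to coenzyme A, read 950 and 2519 (2.65-fold), while its other 2 probe sets gave a log2 difference of 0.33 and a bound of at least 1.42-fold. PLA2G12A, a secreted phospholipase, read 2429 and 1161 (2.09-fold lower), with 1 of 4 probe sets past 2-fold.

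Of 6 detected genes in the list of other prostanoid receptors, which also holds the regulator PTGFRN, 3 were at least 2-fold higher and 0 lower. TBXA2R, the thromboxane receptor, read 161 on the non-target array and 472 on the FOXM1 siRNA array, a 2.94-fold difference; its other 2 detected probe sets were under 2-fold. PTGIR, the prostacyclin receptor, read 46.9, below the floor, and 167, at least 2.75-fold higher. PTGER1, a calcium-coupled receptor of prostaglandin E, read 58.5 and 144, at least 2.37-fold higher, but another of its 3 probe sets read 176 and 41.2, at least 2.26-fold lower. PTGER3, which lowers cyclic AMP, read 97.8 and 36.0, at least 1.26-fold lower.

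Removal of prostaglandins gave 1 of 5 detected genes at least 2-fold higher and 0 lower. PTGR1, a reductase of prostaglandin and leukotriene breakdown, read 725 and 5055, a 6.97-fold difference found past 2-fold in all 3 of its probe sets. HPGD, the dehydrogenase that starts the breakdown of prostaglandin E, read 128 and 110 in its brightest probe set, and its other 3 were lower on the FOXM1 siRNA array by at least 2.09-, 1.84- and 1.40-fold. SLCO2A1, the uptake transporter, read 113 on the non-target array and 47.8, below the floor, on the FOXM1 siRNA array. In the lipoxygenase branch 2 of 7 genes were detected. LTA4H, the leukotriene A hydrolase, read 8029 and 2532, a 3.17-fold lower value, and ALOX5, the 5-lipoxygenase itself, read 19.5 and 66.2, below both floors.

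On the kinin side, of 7 detected genes of kinin breakdown, 3 were at least 2-fold higher and 0 lower, and all probe sets of these 3 that were above the floor were past 2-fold. MME, the membrane protease neprilysin, read 104 and 1345 (12.9-fold), DPP4 read 176 and 1630 (9.27-fold), and ECE1 read 170 and 480 (2.83-fold). ACE, the kininase best known from blood pressure control, read 28.3 and 38.5, below both floors. Of 4 detected genes in the list of kinin formation, which also holds inhibitors such as SERPINA4, 1 was at least 2-fold lower and 0 higher. The lower gene was PRCP, which activates prekallikrein, and only PRCP was above the floor on both arrays. It read 3266 and 1606 (2.03-fold lower), and its other detected probe set was under 2-fold. KNG1, the precursor of bradykinin, and KLKB1, plasma kallikrein, read 10.5 and 29.4, and 7.71 and 64.8, below the floors.

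**Figure D3:**
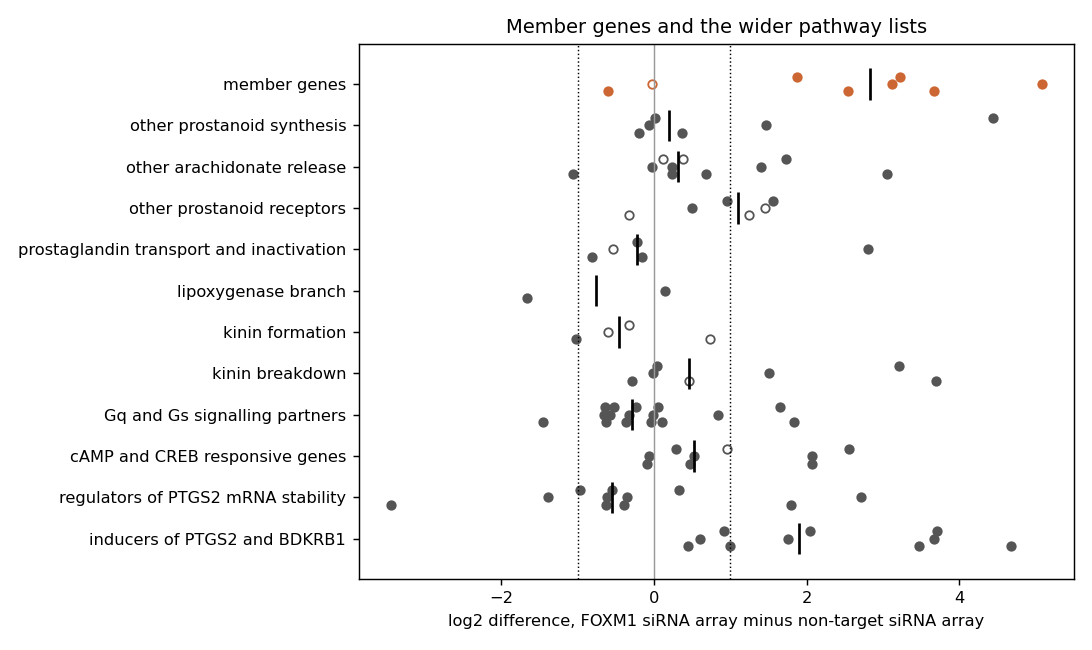
Log2 difference (FOXM1 siRNA array minus non-target siRNA array) of each detected gene in the member list (orange) and the wider pathway lists (grey); filled points lie above the floor on both arrays, open points on 1 array, where the value uses the floor, and black bars are medians. The member median of 2.83 and that of the inducer list, 1.90, lie past the dotted 2-fold line. So does the median of the prostanoid receptor list, 1.10, but it rests in part on the PTGER1 bound. Another PTGER1 probe set was lower on the FOXM1 siRNA array.

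Of 16 detected genes for G proteins, phospholipase C, adenylyl cyclases, kinases and arrestins, 2 were higher and 1 lower by 2-fold or more, and the median log2 difference was -0.28. GRK5, a receptor kinase, read 263 and 941 (3.57-fold), the adenylyl cyclase gene ADCY7 read 153 and 481 (3.15-fold), and ADCY9 read 997 and 365 (2.73-fold lower), with its other detected probe set at least 1.16-fold lower. The G protein genes GNAS and GNAQ, which carry the signals of PTGER2 and PTGER4 and of the bradykinin receptors, had log2 differences of 0.10 and 0.05 in their brightest probe sets; 2 dimmer GNAS probe sets gave -1.35 and -1.23. Of 9 detected genes that respond to cyclic AMP, 3 were at least 2-fold higher and 0 lower. PDE4B, a phosphodiesterase, read 112 and 661 (5.90-fold), the phosphatase gene DUSP1 2602 and 10977 (4.22-fold) and the kinase gene SIK1 498 and 2082 (4.18-fold). The other detected PDE4B probe set was at least 1.76-fold higher, the other SIK1 probe set gave a log2 difference of 0.19, and another DUSP1 probe set gave -0.91. In their brightest probe sets CREM, NR4A1 and NR4A2 had log2 differences of -0.09, 0.29 and -0.07. The other 4 CREM probe sets above both floors gave 0.44, 0.55, 1.23 and 0.13.

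PTGS2 mRNA is known to be held in check through AU-rich elements and the proteins that bind them. The list read here is wider and holds 11 regulators of PTGS2 mRNA stability and translation, with decay and stabilising factors together. All were above the floor on both arrays, 2 were at least 2-fold higher and 2 lower, and the median log2 difference was -0.55. The decay factors ZFP36L1 and ZFP36 read 1329 and 8700 (6.55-fold) and 169 and 586 (3.47-fold). CELF2, which binds PTGS2 mRNA and limits its translation, read 3092 and 284, a 10.9-fold lower value, and all 4 of its detected probe sets were at least 2-fold lower. RBM3 read 4018 and 1533 (2.62-fold lower), with its other probe set under 2-fold. ELAVL1, a stabilising factor, had a log2 difference of -0.63 in the brightest of its 4 probe sets and -1.16 in another. TIA1 had -0.98 in its brightest probe set, and its other detected probe sets gave -1.41, -1.70, -1.09, -0.83 and -0.46.

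Among cytokines, receptors and transcription factors known to induce PTGS2 and BDKRB1, 7 of 10 detected genes were higher by 2-fold or more and 0 lower, and the median log2 difference was 1.90. Over all detected genes 16.0% were higher and 15.4% lower, but this list was drawn up with earlier results of these arrays known, so its count supports nothing. The cytokine gene IL1B read 1224 and 31460 (25.7-fold), with both probe sets past 2-fold, and its receptor gene IL1R1 read 166 and 2162 (13.0-fold). IL6 read 863 and 10968 (12.7-fold). IL1A read 76.1 and 844 (11.1-fold), but its other probe set read 65.7 and 57.4, the second below the floor, and gives no fold. The transcription factor genes CEBPB and CEBPD read 5307 and 21931 (4.13-fold) and 425 and 1437 (3.38-fold). The NF-kB subunit genes NFKB1 and RELA differed by less than 2-fold, with log2 differences of 0.92 and 0.44. TNF was below both floors.

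Other differences between the 2 arrays bear on all of these values. FOXM1 read 1520 and 1343 in its only probe set, 25.0 and 17.3 times the floors, a log2 difference of -0.18. No clear loss of the targeted transcript was seen, so its signal does not bear out the FOXM1 siRNA label. Of the 9p21 genes named at the start, CDKN2A was 8.24-fold lower on the FOXM1 siRNA array, and the bounds for CDKN2B and MTAP were 4.50-fold and 7.96-fold lower. Of 8 astroglial markers 6 were detected, 2 were at least 2-fold higher and 0 lower, and GFAP and AQP4 were below both floors. The list's summed signal was 24729 and 71192, most of it from VIM (21179 and 40017) and CD44 (2222 and 29344). OLIG2 read 270 and 266, and S100B read 87.8 and 2.21, the second below the floor. Of 7 fibroblast markers 6 were detected and 5 were at least 2-fold higher, with a summed signal of 1923 and 21415. Most of it came from COL1A1 (1119 and 11394) and COL1A2 (515 and 8631). LUM read 91.1 and 844, and DCN and PDGFRB were above the floor on the FOXM1 siRNA array only. COL3A1 read 61.0 and 59.6 and has no fold, and THY1 was below both floors. Of 7 epithelial markers 5 were detected and 2 were at least 2-fold lower, with a summed signal of 12770 and 1153. Most of it came from DSP (9707 and 336) and KRT18 (2655 and 380). KRT8 read 220 and 265, EPCAM was at least 1.62-fold higher and CDH1 at least 1.45-fold lower. KRT19 and CLDN4 were below both floors. Beside these marker counts, 16.0% of all detected genes were higher and 15.4% lower by 2-fold or more. The macrophage list summed to 246 and 356 with PTPRC, CD14 and AIF1 below both floors, and the endothelial list to 102 and 451 with CDH5 and TEK below both. No marker was listed at 0. For ACTB, the control probe set at the 3′ end read 6.79 times the one at the 5′ end on the non-target array and 4.21 times on the FOXM1 siRNA array, a measure that RNA integrity affects. The same ratio for GAPDH was 1.26 on the non-target array and 1.09 on the FOXM1 siRNA array. The part of these differences in the values of the prostaglandin and bradykinin genes was not tested, and with 1 array each an effect of the siRNA and a difference between the cells cannot be told apart.

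**Figure D4:**
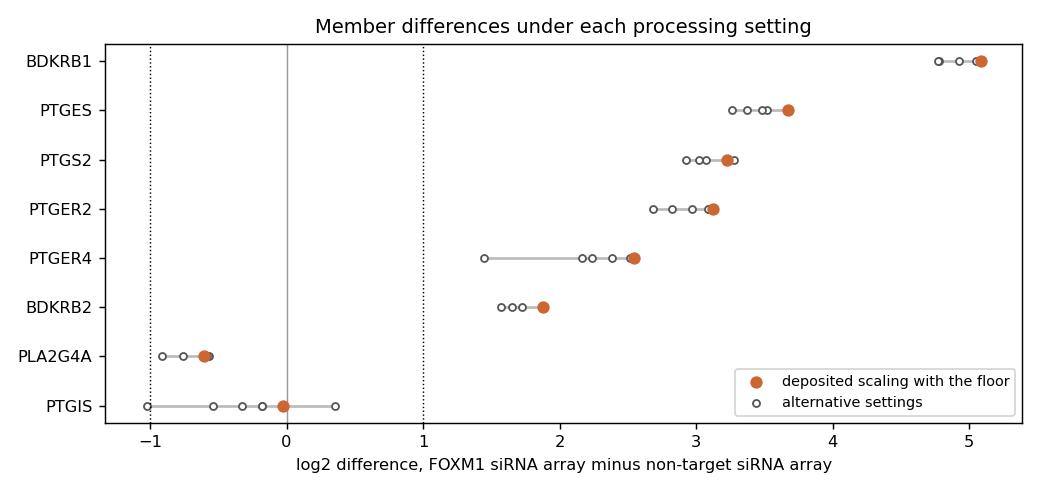
Log2 difference (FOXM1 siRNA array minus non-target siRNA array) of the 8 detected member genes as reported (orange) and under each alternative setting (open circles); dotted lines mark 2-fold. The 6 higher genes stay right of 1 in each setting that gives them a value, PTGER4 reaching 1.45, and PTGIS runs from -1.02 to 0.35.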

How the data were processed

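Per the submitters' processing notes the authors made the deposited values with MAS5, an Affymetrix method that subtracts mismatch signal and rescales every array globally. Its version is not given in the sources used here. As deposited, the values are linear intensities for 54675 probe sets on 2 arrays, 1 per sample, and the number of arrays limits the precision. Their trimmed mean was 500.1 on both arrays. Such scaling assumes equal mean signal, and the 3' labelling kit named in the labels reports mainly transcript ends. Of 54675 probe sets, 41097 had 1 gene symbol in the platform annotation, 1801 had several and named no gene, and 11777 were not listed. Symbols were updated by gene ID through the RefSeq table of GRCh38.p14 for 99.9% of them.

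The brightest probe set by mean log2 signal stood for its gene. Log2 differences are FOXM1 siRNA minus non-target siRNA. A gene above the floor on 1 array only has a bound, and no fold was computed for 416 such genes with a bound below 1. The threshold of the counts was 2-fold. All probe sets of the members are given; of each wider list, the genes past 2-fold, up to 6, and up to 3 others were named. The members and lists were chosen with earlier results of these data known. Calculations used Python 3.11.15, numpy 2.4.6 and pandas 2.3.3 and were tested on simulated data.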

Additional observations from a re-analysis of the deposited data

How the results depend on the processing

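No paired analysis was possible because each group holds 1 array. The alternatives were median centring, quantile scaling, hybridisation controls set equal, no floor, a floor 2 times as high, a pseudocount of 50, the median over probe sets, leaving out _x_at and _s_at probe sets, a 1.5-fold threshold and, chosen after seeing the data, 1 common floor. The count of higher members was 6 in each of them except without _x_at and _s_at probe sets, where it was 5 because PTGES has no other kind. The count of lower members went from 0 to 1 with no floor (PTGIS) and to 1 at 1.5-fold (PLA2G4A). PTGER4 fell to 1.45 (log2) with the median of its probe sets, 1 of which is below both floors. PTGIS was at -1.02 with no floor and -0.54 with the pseudocount. BDKRB1 ranged from 4.77 to 5.08 and BDKRB2 from 1.57 to 1.88. Of the 86 other pathway genes detected, 26 were at least 2-fold higher, with a range of 18 to 33, and 6 were lower. The lower count was 2 with the median of probe sets, 3 when _x_at and _s_at probe sets were left out and 14 at 1.5-fold. The lower share of all detected genes was 15.4%, against 10.7%, 15.1% and 26.8% under these settings in turn. The higher share was 16.0%, against 12.7%, 16.1% and 26.1%. Leaving out those probe sets also cut all detected genes from 13865 to 11032. The shifts in the pathway counts are therefore not read as particular to these genes. The hybridisation controls had a median log2 difference of 0.30, so scaling to them lowers the difference of each gene above both floors by that amount. With all probe set medians set equal, the median of all detected genes moved from 0.01 to -0.15.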
